A study of Homo sapiens with 9 samples.

Results

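TET1-ALT, the TET1 form that the series' title describes as lacking the CXXC domain, was compared with an empty vector for DNA methylation in HEK293T, a cell line from human embryonic kidney with the SV40 T antigen. The comparison rests on 58310 CCCGGG sites on chromosomes 1 to 22 that had a value in every library, of 382289 listed sites in the genome. Cells received pIRES plasmids by lipofection, either the empty plasmid or one for TET1-ALT, and DNA was taken after 4 days. Each group had 3 libraries, and 3 further libraries with full-length TET1 (TET1-FL) entered the choice of sites and the estimate of the spread. All groups were the same cell line, grown in the same medium and transfected in the same way. The labels do not say whether replicates came from cultures kept apart. The p-values therefore measure only the spread among these libraries, which may be technical. DNA came from whole transfected cultures, so each percentage averages cells with and without the plasmid, and the share of transfected cells and the amount of TET1-ALT made were not analysed here.

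TET1 belongs to the dioxygenases that oxidise methylated cytosine, the start of active loss of the mark. Its CXXC domain is a zinc finger that binds CpG-rich unmethylated DNA, and the catalytic domain lies at the other end of the protein. The assay, digital restriction enzyme analysis of methylation, reads the CpG inside CCCGGG through a pair of enzymes: SmaI cuts the unmethylated site, and XmaI then cuts what is left. The result for each site is a percentage. Of 35116 RefSeq promoters of 300 bases on GRCh38.p14, 20.9% contain CCCGGG, which reads the same on both strands, so most promoters have no site of this kind in that window. Sites are named below by chromosome and hg19 position because no hg19 annotation was used here.

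The libraries were not alike in coverage. On chromosomes 1 to 22 the TET1-ALT libraries had a value at 67165 to 68075 sites and the empty vector libraries at 60055 to 64857, with the lowest number in empty vector replicate 3. More TET1-ALT sites therefore reached the minimum of 20 reads, and the part of this gap in the results below was not tested. Correlations between the 6 libraries across sites were 0.995 to 0.997, and the pair with the most identical values shared 5.999% of sites. TET1-ALT replicate 1 stood apart from the other TET1-ALT libraries at methylated sites, and results are given with and without it where it matters.

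At methylated sites the TET1-ALT group had a lower mean than the empty vector group, by less than the spread between libraries. At the 27399 sites of 20 to 95% mean methylation, the TET1-ALT libraries averaged 72.5%, 71.7% and 71.2% in replicates 1, 2 and 3. The empty vector libraries averaged 72.4%, 72.5% and 71.9%. TET1-ALT replicate 1 lay among the empty vector libraries, while replicates 2 and 3 lay below all of them. The difference of the group means was -0.500 percentage points, and the differences between single libraries ran from -1.33 to 0.616 points, which gives the exact 90% interval of a constant shift (two-sided exact permutation p = 0.3, n = 3 each). Without TET1-ALT replicate 1 the difference was -0.863 points. At the 14231 sites of 20 to 80% it was -0.643 points, -1.13 without TET1-ALT replicate 1 and -0.228 without TET1-ALT replicate 3. With 3 libraries against 3, the smallest p this test can give is 0.1, so no difference of library means could pass 0.05.

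The size of the difference varied with the methylation level of the sites. Sites were sorted into 18 steps by their mean over all 9 libraries, and the TET1-ALT mean was lower in 17 of them. Sites of 5 to 20% differed by -0.235 points (11.7% against 11.9%; -0.401 without TET1-ALT replicate 1, -0.0871 without TET1-ALT replicate 3) and sites of 20 to 30% by -0.523 points. It was farthest from 0 at 60 to 70%, where the groups averaged 65.4% and 66.1% (difference -0.793, exact permutation p = 0.3, n = 3 each). It was -0.579 points at 70 to 80%, -0.268 points at 90 to 95% and 0.014 points at 98 to 100%. At 50 to 60% the TET1-ALT libraries averaged 56.6%, 55.1% and 54.4% and the empty vector libraries 56.3%, 56.6% and 55.5%. TET1-ALT replicate 1 was above all 3 empty vector libraries at that step, and replicates 2 and 3 were below all 3. Across all 18 steps, replicates 2 and 3 were both under all controls at 14, and all 3 replicates were so at 2. When the steps were set by the TET1-FL libraries alone, which take no part in this comparison, the mean was again lower at 17 of 18 steps and the 3 libraries lay below at 4.

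**Figure D1:**
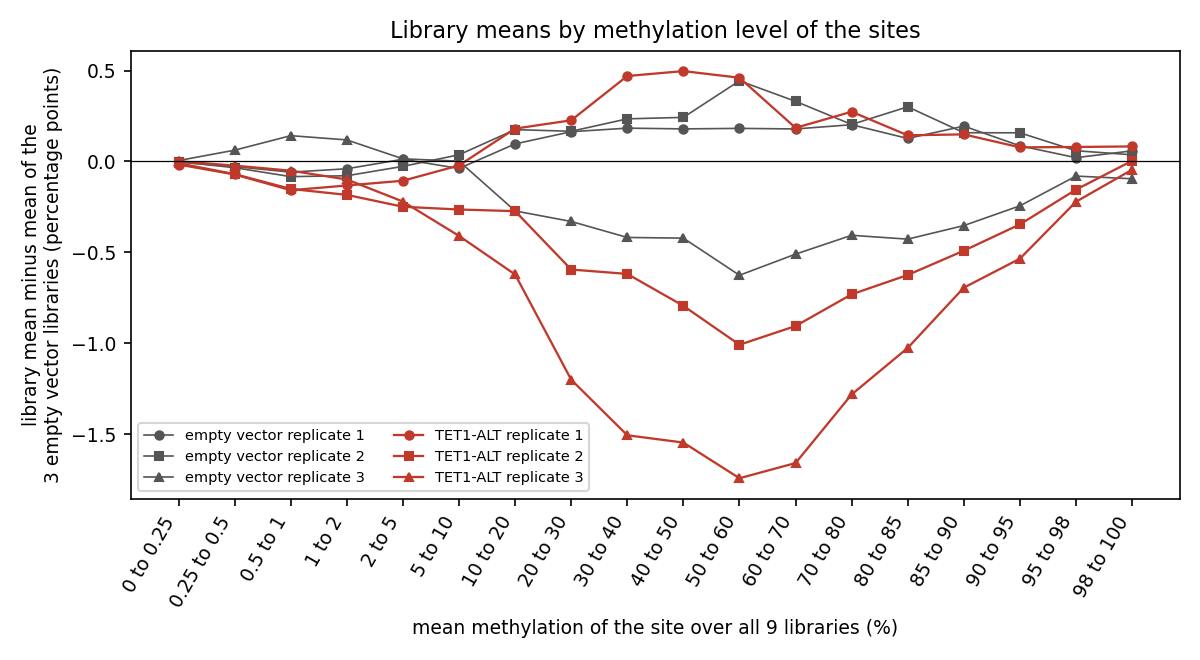
Mean methylation of each library minus the mean of the 3 empty vector libraries, in percentage points, against the methylation level of the sites in 18 steps; red lines are TET1-ALT libraries and grey lines empty vector libraries, with 1 marker shape per replicate number. TET1-ALT replicates 2 and 3 dip most at the middle levels, while replicate 1 lies below all empty vector libraries at the 5 steps under 5%, among them at 5 steps and above them at 8; the group difference was -0.793 points at 60 to 70%.

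Single sites varied more than this. At sites of 20 to 80% replicates had a median standard deviation of 2.51 points in TET1-ALT and 2.56 points in the controls, and the middle 90% of site differences ran from -5.67 to 4.48 points with a median of -0.637. At sites of 80 to 95% the standard deviations were 1.73 and 1.76 points, with a median difference of -0.383. The spread was thus alike in both groups in these classes, and the shift was a fraction of it at any single site. Over all 58310 sites, 32834 (56.3%) had a lower mean in TET1-ALT.

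The lower mean was shared by all autosomes. At sites of 20 to 95% the TET1-ALT mean was lower on 22 of 22 chromosomes, and the libraries of both groups overlapped on all 22. The count was 20 without TET1-ALT replicate 3. It was also 20 with sites that had a value in at least 2 libraries of each group. The difference was farthest from 0 on chromosome 20, at -0.736 points over 1085 sites (70.6% against 71.3%), followed by chromosome 19 at -0.645 points over 2438 sites and chromosome 7 at -0.633 points over 1590 sites. It was nearest to 0 on chromosome 18, at -0.223 points over 415 sites, and on chromosome 13, at -0.253 points over 459 sites. TET1-ALT replicate 3 was below every empty vector library on 22 chromosomes and replicate 2 on 18. Replicate 1 was above every empty vector library on 12 chromosomes and among them on the other 10. Chromosomes are not replicates, so these counts describe how evenly each library was shifted.

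**Figure D2:**
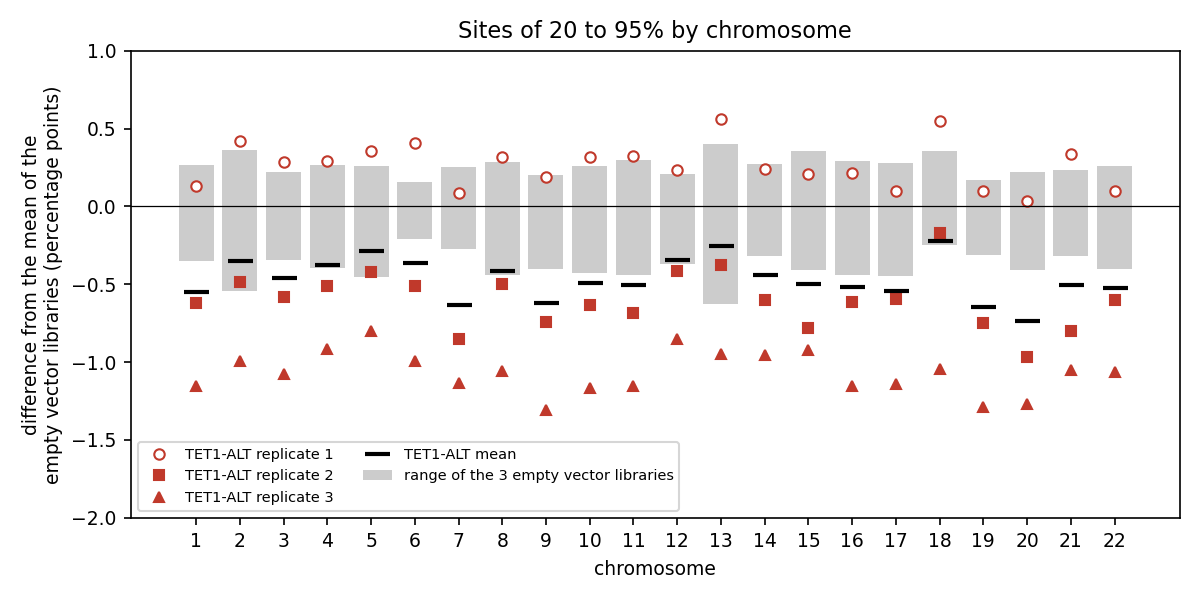
Difference of each TET1-ALT library from the mean of the empty vector libraries, in percentage points, at sites of 20 to 95% on each autosome; grey bars give the range of the 3 empty vector libraries and black dashes the TET1-ALT mean. Replicate 3 lies under the grey bar on 22 of 22 chromosomes, replicate 1 inside or above it, and the mean is lowest on chromosome 20 at -0.736 points.

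Sites on sequences other than the human chromosomes were listed beside the genomic ones. There were 18 of them on 8 named sequences. The labels speak of 5 added standards of known methylation without naming them, so it is unknown which of the 8 sequences are those standards. Their TET1-ALT mean was lower at 10 and higher at 8 sites, with a median difference of -0.103 points and a range from -1.35 to 3.28. The sites of the Luc306 sequence had 23.3%, 23.5% and 23.9% in TET1-ALT and 24.0%, 23.9% and 24.4% in the controls at the first site. At the second they had 23.2%, 23.7% and 23.9% against 24.0%, 24.0% and 24.4%. These differences, -0.533 and -0.507 points, were of the size seen in genomic sites of 20 to 30%, and the second was the only one of the 18 sites at which the libraries of both groups did not overlap. The La248 sites, near 7%, differed by -0.477 and -0.437 points, beside -0.232 points at genomic sites of 5 to 10%. The Sla374 sites went the other way, at 0.603, 3.28 and 0.597 points. The authors had used standards to adjust the values, and the part of that adjustment in the genomic difference was not tested.

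**Figure D3:**
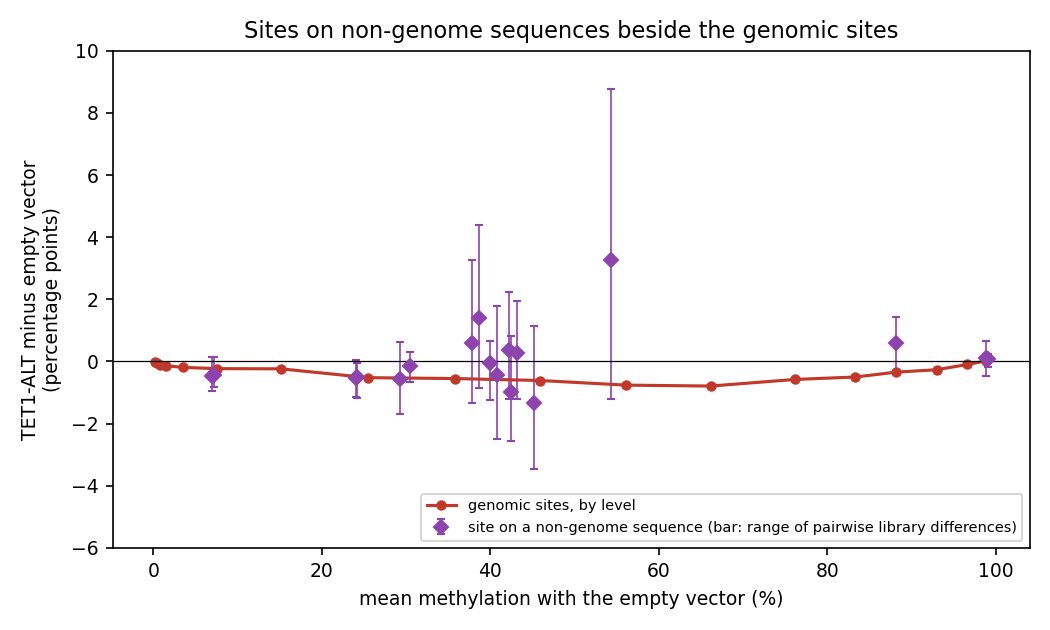
TET1-ALT minus empty vector in percentage points against the empty vector mean, for 18 sites on non-genome sequences (purple diamonds, bars give the range of the differences between single libraries) and for genomic sites in 18 level steps (red line). The 18 sites scatter on both sides of 0, from -1.35 to 3.28 points, while the genomic line stays between -0.793 and 0.014.

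Of the 5 level classes, that of unmethylated sites was the only one in which the TET1-ALT libraries were all lower than the controls. The 22479 sites under 5% averaged 0.498%, 0.491% and 0.525% in TET1-ALT and 0.539%, 0.531% and 0.593% in the controls. The difference was -0.049 points (pairwise -0.102 to -0.006, exact permutation p = 0.1, n = 3 each, the smallest possible). The median of the site differences was -0.0067 points, 52.8% of the sites had a lower mean, and the middle 90% ran from -0.583 to 0.317 points. With the median over sites in each library in place of the mean, the group difference was -0.0233 points. None of the libraries had a value of exactly 0, and the lowest value was 0.01%. How sites without methylated reads were given a value is not stated in the labels, and its part in differences this small was not tested. Empty vector replicate 3, the library with the fewest measured sites, was the highest, and without it the difference was -0.030 points with the groups still apart. Within the class, the difference was -0.00845 points at sites under 0.25%, -0.120 points at 0.5 to 1%, -0.138 points at 1 to 2% and -0.192 points at 2 to 5%. Without empty vector replicate 3 it was -0.049 points at 0.5 to 1% and -0.079 points at 1 to 2%. At 2 to 5% the TET1-ALT libraries averaged 3.37%, 3.22% and 3.25% and the empty vector libraries 3.48%, 3.45% and 3.49%. Here empty vector replicate 3 was not separate from the other controls, and without it the difference was -0.185 points.

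Local site density split the unmethylated sites. At the 9156 sites under 5% with at most 2 other listed CCCGGG sites within 1000 bases, the TET1-ALT libraries averaged 0.662%, 0.635% and 0.659% and the empty vector libraries 0.703%, 0.708% and 0.786% (difference -0.081 points, -0.054 without empty vector replicate 3, and -0.04 with medians over sites). At the 3409 such sites with 6 or more neighbours they averaged 0.362%, 0.365% and 0.417% against 0.390%, 0.361% and 0.419% (difference -0.0089 points, 0.0055 without empty vector replicate 3). The groups were apart at the isolated sites and overlapped at the dense ones. The difference of these differences was -0.0717 points, with differences between single libraries from -0.124 to -0.0136 (exact permutation p = 0.1, Benjamini-Hochberg 0.125 over the 5 density comparisons made, n = 3 each). Leaving out each library in turn gave -0.0862 to -0.0575 points. The isolated sites also started from a higher level, so level and density cannot be told apart here.

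**Figure D4:**
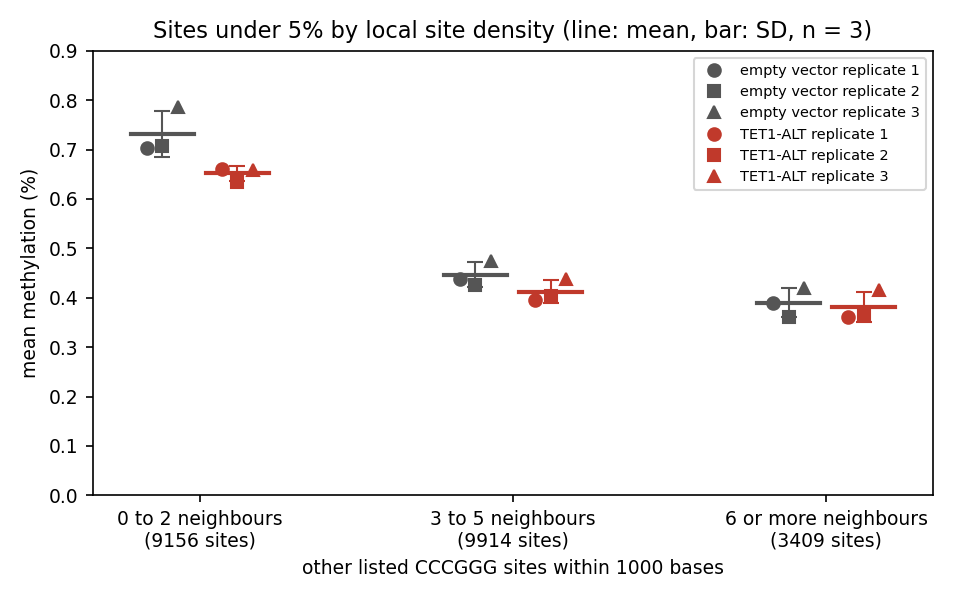
Mean methylation in percent of sites under 5%, by how many further CCCGGG sites are listed within 1000 bases; points are libraries, lines the mean and bars the standard deviation of 3 libraries. TET1-ALT (red) lies below the empty vector (grey) at 0 to 2 neighbours, by 0.081 points on average (-0.081), and overlaps it at 6 or more neighbours.

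For methylated sites, the groups overlapped in their dependence on density within 1000 bases and were apart in that on density over a megabase. At sites of 20 to 95%, the difference was -0.477 points with 0 to 2 neighbours, -0.580 points with 3 to 5 and -0.432 points with 6 or more, and the first of these was -0.842 without TET1-ALT replicate 1 and -0.176 without TET1-ALT replicate 3. The first and last differed by -0.045 points (pairwise -0.413 to 0.541, exact permutation p = 0.9, n = 3 each). When the same sites were split into tertiles by the number of CCCGGG sites listed in their megabase, the difference was -0.352 points in the lowest tertile (20 to 215 sites per megabase), -0.546 points in the middle and -0.604 points in the highest (401 to 975 sites). In each library the mean of the lowest tertile was below that of the highest. That gap was -2.78, -2.79 and -2.74 points in the TET1-ALT libraries and -2.97, -3.07 and -3.04 points in the empty vector libraries. The TET1-ALT gaps were all narrower, by 0.253 points on average (pairwise 0.173 to 0.329, exact permutation p = 0.1, Benjamini-Hochberg 0.125). TET1-ALT replicate 1 was not separate from the other TET1-ALT libraries in this measure, from which a constant shift of a library drops out. Leaving out each library gave 0.229 to 0.282 points. A narrower gap was not particular to TET1-ALT. The TET1-FL mean differed from the same controls by -1.42 points in the lowest tertile and -1.62 points in the highest. Within sites of 20 to 80% the gap was also narrower in TET1-ALT, at -2.97 against -3.28 points on average. Within sites of 80 to 95% the lowest tertile was above the highest in each library, and this gap was wider in TET1-ALT, with 0.333, 0.315 and 0.491 points against 0.187, 0.185 and 0.135. The libraries were apart in both classes.

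No single site passed the site test. In limma 0 of 58310 sites (0%) had an adjusted p under 0.05, the smallest being 0.241. Unadjusted p-values under 0.05 were found at 3250 lower (5.57%) and 999 higher sites (1.71%). Of the 3250, 1796 were sites under 5% (7.99% of that class), 625 sites of 20 to 80% (4.39%) and 594 sites of 80 to 95% (4.51%). With each library centred on its sites of 80% or more, which moves the median difference of all sites from -0.037 to 0.230 points, the split was 1137 lower and 1264 higher. This centring moves every site of a library by the same amount. At sites under 5% that move was larger than their difference of -0.049 points, so the split does not describe them. All TET1-ALT values were under all control values at 5919 sites (10.2%) and over them at 1820 (3.12%). Of the 5919, 3301 were sites under 5% (14.7% of that class), 1105 sites of 20 to 80% (7.76%) and 994 sites of 80 to 95% (7.55%). Of the 1820, these classes held 545 (2.42%), 430 (3.02%) and 445 (3.38%). Group means were also at least 10 points apart at 103 of the lower sites (0.177%) and 53 of the higher ones (0.0909%), which are described next as values, since they were chosen by this difference. The values nearest to that limit were -10.01 points inside and -9.997 points outside for lower sites, and 10.03 and 9.98 points for higher sites.

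The 103 lower sites lay on 18 chromosomes. Of these, 87 were in the class of 20 to 80%, which held 24.4% of all sites. Of the 87, 58 (66.7%) had at most 2 neighbours, beside 71.7% of all sites in the class. The TET1-FL mean was below the empty vector mean at 98 of the 103 (median difference -10.3 points), beside 38864 of all 58310 sites. The empty vector libraries used in the choice enter this difference too. The site on chromosome 3 at 133786821 had 49.1%, 47.7% and 48.2% in the TET1-ALT libraries and 62.1%, 77.1% and 70.1% in the empty vector libraries. It had the most negative difference of all, -21.4 points, and its TET1-ALT libraries were close together (SD 0.706) while the controls were spread (SD 7.49, n = 3). On chromosome 17 at 19770860 the values were 18.6%, 13.2% and 9.53% against 34.5%, 35.2% and 31.6% (difference -19.99). The controls were close together there (SD 1.94, n = 3), and the TET1-FL libraries had 21.9%, 16.7% and 6.97%. On chromosome 19 at 2546939 the values were 74.0%, 66.0% and 62.0% against 85.1%, 82.9% and 82.1% (difference -16.1, TET1-FL mean 77.4%). On chromosome 11 at 1036988 they were 19.4%, 13.9% and 18.5% against 35.5%, 34.0% and 30.05% (difference -15.9). The groups did not overlap at any of these by the way they were chosen.

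At 3 other sites among the 12 most negative, 1 library moved the difference by over 1.5 times. On chromosome 1 at 98519070 the empty vector libraries had 73.2%, 79.98% and 97.3% and the TET1-ALT libraries 72.9%, 65.8% and 53.0%. The difference was -19.6 points, and -12.7 without empty vector replicate 3. At a further site, on chromosome 20 at 45338084, the controls had 48.9%, 46.2% and 21.7% and TET1-ALT 20.3%, 21.6% and 17.0%, so the third control was next to the TET1-ALT values. On chromosome 11 at 34621403 the difference of -18.5 points was -11.03 without empty vector replicate 3, and on chromosome 10 at 134095227 that of -19.4 was -12.2 without TET1-ALT replicate 3. The remaining sites of the 12 were on chromosome 3 at 185379490 (-17.6 points), chromosome 12 at 110438366 (-16.7), chromosome 7 at 2534608 (-15.5) and chromosome 6 at 40591613 (-15.4). At the first of these, TET1-FL was not low: it had 55.0%, 66.5% and 71.2%, against 42.9%, 33.1% and 50.5% in TET1-ALT and 69.1%, 52.6% and 57.5% in the controls.

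The 53 higher sites lay on 20 chromosomes, and 40 were in the class of 20 to 80%, which held 24.4% of all sites. The TET1-FL mean was below the empty vector mean at 2 of the 53 (median difference 8.14 points), beside 38864 of all 58310 sites. Here too the empty vector libraries used in the choice enter the difference. On chromosome 1 at 2368659 the TET1-ALT libraries had 58.4%, 52.1% and 37.5% and the empty vector libraries 31.5%, 30.6% and 20.1% (difference 21.9). On chromosome 10 at 3111356 the values were 44.2%, 48.4% and 56.4% against 12.5%, 34.8% and 37.2%, a difference of 21.5 points that was 13.6 without empty vector replicate 1. At each of these sites 1 control was well below the others, and at the first the TET1-ALT libraries also ranged from 37.5% to 58.4%. On chromosome 4 at 5958822 the values were 50.7%, 52.0% and 44.2% against 31.9%, 37.5% and 33.9% (difference 14.5, TET1-FL mean 49.9%). On chromosome 2 at 104942856 they were 79.3%, 76.2% and 75.9% against 54.8%, 58.0% and 68.3% (difference 16.7, TET1-FL mean 65.5%). On chromosome 11 at 9113235 the TET1-ALT libraries had 84.8%, 86.3% and 88.2% and the controls 58.6%, 79.4% and 67.7%. Here the TET1-ALT libraries were close together and the controls differed by over 20 points. The other 5 of the 10 most positive were on chromosome 18 at 77706207 (18.0 points), chromosome 11 at 108335182 (15.5), chromosome 4 at 8207560 (14.6), chromosome 16 at 65157510 (14.5) and chromosome 19 at 54931886 (14.4). The last was 6.86 points without empty vector replicate 1, and that on chromosome 4 at 8207560 was 8.97 points without empty vector replicate 3.

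**Figure D5:**
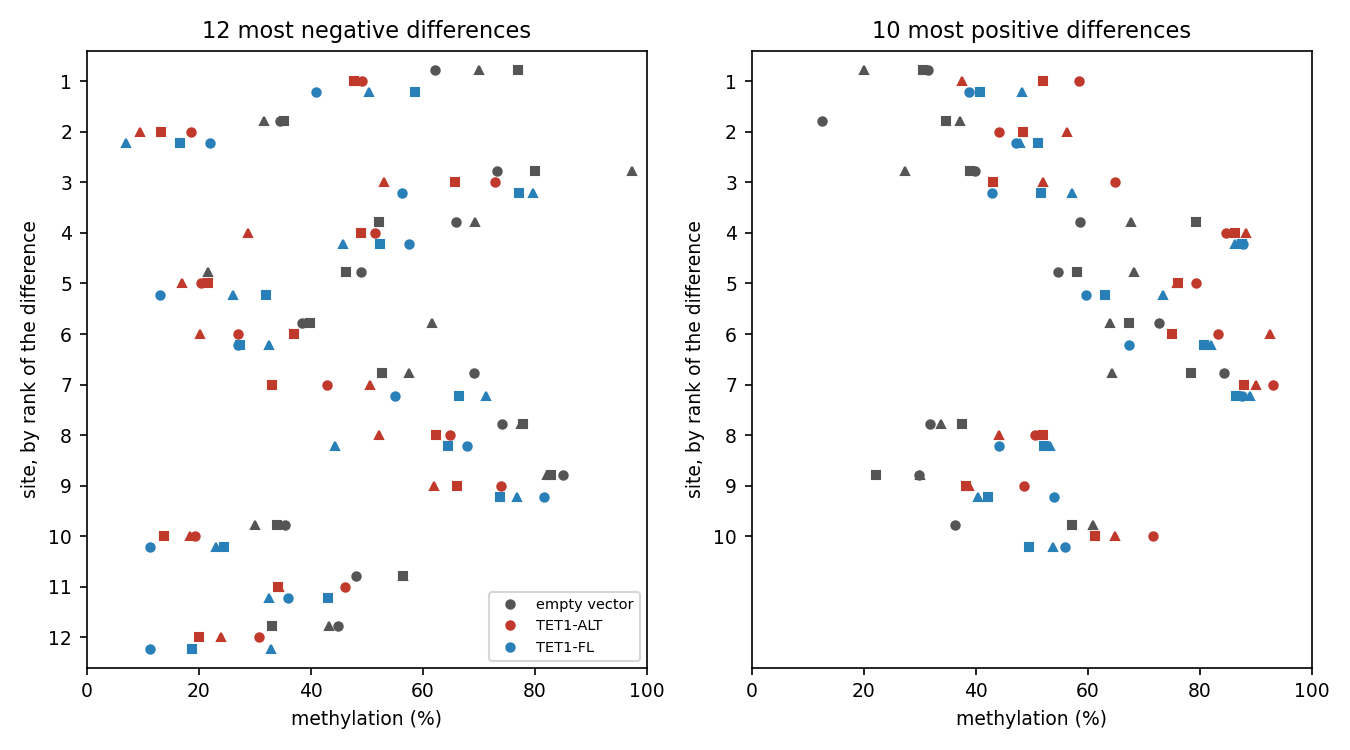
Methylation in percent of every library at the 12 sites with the most negative and the 10 with the most positive TET1-ALT minus empty vector difference among sites with separate libraries; each row is a site, and circles, squares and triangles are replicates 1, 2 and 3. Red TET1-ALT points lie left of the grey empty vector points in the left panel and right of them in the right panel by the way the sites were chosen, with differences from -21.4 to -15.4 and from 14.4 to 21.9 points; blue points are TET1-FL.

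Neighbours of the chosen sites were described with sites of the same set left out, so smaller median differences follow from the choice. Within 1000 bases of the 103 lower sites, 87 other measured sites of 20 to 95% had a median difference of -0.860 points, and 54 (62.1%) had a lower mean, beside 59.7% and -0.487 points over all 27399 sites of that range. Around the 53 higher sites, 42 such neighbours had a median difference of -0.057 points, with 22 (52.4%) lower. Next to the site on chromosome 17 at 19770860, the site 6 bases upstream at 19770854 had 26.1% ± 2.97 in TET1-ALT and 21.1% ± 1.91 in the controls (SD, n = 3), a difference in the other direction with overlapping libraries. The 2 recognition sequences stand end to end there. Other named sites had a neighbour that differed in the same direction with libraries apart. The site on chromosome 10 at 3111356 had one at 3110871 with 27.3% ± 1.14 against 15.5% ± 6.88, a difference of 11.8 points. That neighbour is itself among the 53 higher sites and so is not among the 42. The lower site on chromosome 11 at 1036988 had one at 1037962 with 71.1% ± 3.31 against 79.9% ± 4.54 (difference -8.85), and the higher site on chromosome 11 at 9113235 one at 9113049 (difference 3.91). The neighbours of the higher sites on chromosome 4 at 8207560 and chromosome 19 at 54931886 differed the other way, by -7.81 and -8.50 points, also with libraries apart. Around the site on chromosome 19 at 2546939, all 3 measured neighbours had a lower mean in TET1-ALT, by -0.957, -1.74 and -2.33 points, and the libraries were apart at the first and second. Sites within one sequenced fragment can share reads, so neighbours are not independent.

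The sites with the smallest p-values had replicates close together. The smallest was on chromosome 22 at 23863739, with 0.350%, 0.340% and 0.210% in TET1-ALT and 1.35%, 1.56% and 1.39% in the empty vector libraries (limma adjusted p = 0.241), and its TET1-FL mean was 0.317%. On chromosome 19 at 19448333 the TET1-ALT libraries had 88.1%, 88.7% and 88.4% and the controls 93.3%, 93.2% and 93.7% (difference -4.99, SE 0.648, limma adjusted p = 0.627). On chromosome 11 at 70384354 the values were 72.4%, 71.55% and 73.8% against 80.3%, 81.1% and 81.9% (difference -8.52), and the TET1-FL libraries, at 80.3%, 79.1% and 81.3%, stayed with the controls. The fourth, on chromosome 17 at 27224424, had 0.127% against 0.390%. Among higher sites, that on chromosome 6 at 117869525 had 96.7%, 97.0% and 98.4% in TET1-ALT and 89.1%, 89.3% and 92.6% in the controls (difference 7.06, limma adjusted p = 0.648), with a TET1-FL mean of 93.3%. The other 3 were unmethylated sites: on chromosome 18 at 59993226 the mean was 0.850% in TET1-ALT and 0.197% in the controls, on chromosome 20 at 62205388 it was 0.857% and 0.207%, and on chromosome 10 at 46089868 it was 0.490% and 0.110%. None of these 8 passed the adjusted threshold.

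Averaging sites over 100 kb windows did not give a call either. In limma 0 of 1721 windows (0%) passed, with a smallest adjusted p of 0.420, and 110 lower (6.39%) and 19 higher windows (1.1%) had an unadjusted p under 0.05. The TET1-ALT mean was lower in 1276 windows (74.1%), with a median difference of -0.513 points, beside median standard deviations of 1.02 points in TET1-ALT and 0.954 points in the controls. Libraries were apart at 180 lower windows (10.5%) and 21 higher ones (1.22%). With the centring used for the sites, 83 lower and 26 higher windows had an unadjusted p under 0.05 in limma. The TET1-ALT mean was then lower in 1073 of 1721 windows. The smallest p was on chromosome 12 from 121600001 to 121700000, where 5 sites averaged 76.1%, 76.1% and 76.2% in TET1-ALT and 78.5%, 80.7% and 81.1% in the controls (limma difference -3.97, SE 0.839, adjusted p = 0.420). All 5 sites had a lower mean. On chromosome 16 from 88600001 to 88700000, 9 sites averaged 54.8%, 53.6% and 52.5% against 57.4%, 57.4% and 58.9%. On chromosome 3 from 185300001 to 185400000, 5 sites averaged 71.0%, 68.3% and 69.7% against 78.3%, 73.4% and 74.6%, the most negative window difference at -5.76 points, in a window that holds the named site at 185379490. The others of the 6 were on chromosome 1 from 154300001 (80.8% ± 0.600 against 83.5% ± 0.295), chromosome 9 from 130700001 (55.1% ± 0.961 against 59.0% ± 0.558) and chromosome 22 from 29600001 (76.6% ± 1.32 against 80.2% ± 0.576; SD, n = 3).

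Windows that were higher in TET1-ALT were fewer. On chromosome 8 from 600001 to 700000, 5 sites averaged 57.3%, 58.4% and 56.1% in TET1-ALT and 52.3%, 54.2% and 54.2% in the controls (limma difference 3.74, SE 0.947, adjusted p = 0.420), and the TET1-FL mean was 58.0%. On chromosome 5 from 3500001 to 3600000, 7 sites averaged 80.8%, 80.7% and 81.2% against 77.8%, 79.4% and 77.4%. On chromosome 22 from 20900001 to 21000000, 6 sites averaged 74.1%, 72.9% and 72.7% against 70.2%, 70.4% and 71.7%, with TET1-FL at 71.1%. On chromosome 19 from 12800001 to 12900000, 8 sites averaged 81.4% ± 0.465 against 79.3% ± 1.01, and on chromosome 9 from 138400001 to 138500000 8 sites averaged 79.7% ± 1.29 against 77.5% ± 0.654 (SD, n = 3). The sixth window, on chromosome 8 from 48600001 to 48700000, had overlapping libraries, with 47.9%, 51.1% and 51.9% against 42.6%, 49.0% and 46.3%.

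At sites of 20 to 95% the TET1-ALT mean lay between those of the controls and of full-length TET1, at 71.8%, 72.3% and 70.7%. The position between them depended on TET1-ALT replicate 1. TET1-ALT differed from the controls by -0.500 points, or -0.863 without that replicate, and TET1-FL by -1.55 points. TET1-ALT replicate 3, at 71.2%, was close to the highest TET1-FL library, at 71.0%. At sites of 60 to 70% the controls averaged 66.1%, TET1-ALT 65.4% and TET1-FL 64.0%. The direct difference of TET1-FL from TET1-ALT was -1.37 points there, with the 3 TET1-FL libraries below the 3 TET1-ALT libraries (exact permutation p = 0.1, n = 3 each, the smallest possible). The separation was narrow, with 64.4% in the highest TET1-FL library and 64.5% in TET1-ALT replicate 3. The libraries of both forms overlapped at 20 to 30%, 40 to 50% and 50 to 60% (exact permutation p = 0.2 each, n = 3 each). They were apart at the other steps from 20% up. At sites of 0.5 to 1% the means were 0.794%, 0.675% and 0.636% in the same order. Of the 5 steps under 5%, TET1-FL and TET1-ALT libraries overlapped at 4, and at 2 to 5% the TET1-FL libraries were lower by 0.153 points (-0.153, exact permutation p = 0.1, n = 3 each). They were also lower at sites under 5% with 0 to 2 neighbours, at 0.624% against 0.652% (exact permutation p = 0.1, n = 3 each). The comparisons of both forms with the empty vector share the same control libraries.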

How the data were processed

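The deposited table gives methylation in percent for CCCGGG sites named on hg19. Per the labels' protocols, the authors digested DNA with SmaI and then XmaI, selected fragments by size and amplified them in 18 PCR cycles. Per the labels, the percent is the methylated share of reads at a site, adjusted by the authors with spiked-in standards, and a value needed at least 20 reads. Aligner and caller: not given in the sources used here. Depth per value is unknown, and intervals that would need it were left out. The percentages were used as deposited.

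Sites on chromosomes 1 to 22 with a value in all 9 libraries were kept, and 0 per-sample columns were left out. Library means were compared by two-sided exact permutation tests in scipy 1.17.1. Single sites and windows of 100 kb (at least 5 sites of 20 to 95%) were tested with limma 3.58.1 in R 4.3.3 on all 9 libraries, with a mean per group, trend and robust moderation, no replicate term and Benjamini-Hochberg adjustment over all features. Data were simulated with independent normal noise and no shift of whole libraries, and only methylated sites were changed. With 58310 sites, 28% of sites made lower by 10 points (-10) and 76% at -20 were recovered, and 5 unchanged sites were called. With 1721 windows the window test recovered 20% at -2 points and 66% at -4, and called 3 unchanged windows.

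Sites were named by a rule: libraries of both groups apart and means at least 10 points apart, at most 1 site per 1000 bases, the 12 most negative and 10 most positive, plus the 4 smallest limma p-values in each direction. Windows were the 6 with the smallest p-values in each direction. The site set, classes and rules were chosen with earlier results of these data known, and the level steps, megabase density, comparisons of gaps between density classes and sites on non-genome sequences were added after seeing the data. No hg19 annotation was used here, so no genes, exons or islands are given. Alternatives covered the site set, chromosome X, site classes, medians, scale, moderation, libraries entering the fit, a replicate block, centring, window size, neighbour distance and each library left out. The planned read minimum of 50 could not be applied to percentages.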

Additional observations from a re-analysis of the deposited data

How the results depend on the processing

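All 133 recomputed values of the class means, the density classes, the chromosome count and the numbers of called sites and windows kept their direction and their side of the threshold, which 3 against 3 libraries cannot pass for library means. When each library was left out, the difference at sites of 20 to 80% ran from -1.13 to -0.228 points (-0.643 with all), at 80 to 95% from -0.576 to -0.170, over all sites from -0.458 to -0.123 and at sites under 5% from -0.0610 to -0.0300. Values outside these ranges came from medians over sites, with -0.55 for all sites and -0.0233 under 5%, and from sites with a value in at least 2 libraries of each group, with -0.0987 for all sites. Called sites and windows stayed at 0 in every limma fit. The gap between sparse and dense methylated sites within 1000 bases turned to 0.011, 0.056 and 0.084 points without TET1-ALT replicate 2, empty vector replicate 1 and empty vector replicate 2, in a leave-one-out range from -0.274 to 0.084. Counts at an unadjusted p under 0.05 moved by over 1.5 times in these cases: lower sites were 1137 with centring, 2133 without TET1-ALT replicate 2 and 1806 without TET1-ALT replicate 3, beside 3250. Lower windows were 195 without TET1-ALT replicate 1 and 63 without TET1-ALT replicate 3, beside 110 of 1721. They were 53 of 596 with at least 10 sites per window, a smaller count but a larger share of the windows tested. Higher windows were 30 and 9 without empty vector replicate 1 or 3, beside 19 of 1721. They were 10 of 1615 with 50 kb windows and 3 of 596 with at least 10 sites per window. Fewer windows were tested with at least 10 sites, and otherwise the cause was not tested. Whether equal replicate numbers pair the libraries is unknown. Deviations of equal numbers correlated across sites at 0.012, -0.0037 and 0.0083, beside at most 0.0045, 0.0065 and -0.00086 for other numbers. A constant shift of a library drops out of such correlations, so they cannot decide it. A fit with the replicate block called 0 sites and 0 windows and gave 2687 lower and 1024 higher sites at an unadjusted p under 0.05. Depth per site is unknown, so small differences under 5% cannot be set against counting error. The alternative of at least 50 reads was not run.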

Other observations

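Chromosome X, outside the sites compared above, had 1432 sites with a value in all libraries. Its 644 sites of 20 to 80% averaged 45.6% ± 1.01 in TET1-ALT and 45.7% ± 0.296 in the controls (SD, n = 3), a difference of -0.104 points beside -0.643 on the autosomes (exact permutation p = 0.9). Its 303 sites under 5% averaged 1.39% ± 0.034 and 1.44% ± 0.0066 (SD, n = 3), with the TET1-ALT libraries below (difference -0.0499, exact permutation p = 0.1). The difference between chromosome X and the autosomes was not tested.

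Sites missing from 1 group were unevenly distributed. Of 357624 listed sites on chromosomes 1 to 22, 976 had a value in all 3 TET1-ALT libraries and in 0 empty vector libraries, while 5 had the reverse. The 976 sites averaged 54.7% in TET1-ALT, and 86.6% of them had at most 2 neighbours within 1000 bases, beside 59.4% of the 58510 sites measured in all 6 libraries. This share was not particular to them. It was 84.9% and 81.8% at sites with all 3 TET1-ALT libraries and 1 or 2 empty vector libraries. It was 96.0% at sites without a value in any of the 6, and 47.9% at sites with 2 TET1-ALT and 3 empty vector libraries.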
